A study of Mus musculus with 20 samples.

Results

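The 42 genes described here encode enzymes and membrane proteins of the lysosome, together with the secreted lysosomal protein progranulin and the transcription factor Tfeb. They were chosen by name, as rows of the deposited expression table whose gene symbol stands on a list of lysosomal genes, and no measured value enters this rule. The list itself was chosen with earlier results of these data known, so its counts are not independent of the data. They are 42 of the 24062 genes in the table, and all 42 met the minimum value for testing at both ages. Ctsk met it at 10 months only through the wild-type mice. Microglia were isolated from whole brains of male mice, each sample coming from 1 mouse, and their polyA RNA was sequenced. The transgenic mice, labelled mThy1-Asyn with the genotype HEM and called mThy1-α-synuclein mice here, carry a human wild-type α-synuclein transgene driven by the neuronal Thy1 promoter. Their controls are wild-type mice (WT) of the same B6D2F1/J background. The 7-month groups held 6 transgenic mice and 4 controls, and the 10-month groups 5 mice of each genotype, so the comparisons ask how microglia of the transgenic mice differ from those of age-matched controls and whether that difference changes with age.

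Lysosomes are acidic compartments that break down material taken up from outside the cell or delivered by autophagy. Soluble hydrolases cut proteins, sugar chains, sulfated sugars and lipids, membrane proteins hold the compartment together and move ions and lipids across it, and a proton pump keeps it acidic. Tfeb raises the transcription of many of these genes by binding a short promoter element, the CLEAR box. Microglia, the phagocytes of the brain, are rich in lysosomal proteases and are known to take up α-synuclein, whose aggregates are degraded in part in lysosomes.

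The libraries held between 33404096 and 77806399 reads counted on genes per mouse. Values are normalized counts, that is, read counts that the authors divided by a size factor for each mouse, computed separately for each age. Mice of each age were processed together, so age and processing cannot be told apart in any comparison between ages, of levels or of genotype differences. Nothing in the labels places mice of a group in separate batches. The microglial markers were high in every mouse, with a summed value of at least 1278880 over 10 genes. Markers of other cells were also present. The 5 neutrophil markers in the table summed to between 37857 and 383198, and in the 7-month transgenic group they split the mice, with replicates 1 to 3 at 37857 to 63869 and replicates 4 to 6 at 210621 to 383198. Among the 7-month wild-type mice, replicate 4 had a sum of 65277 and the others 215929 to 246987. Fewer cells of a type and less RNA per cell cannot be told apart in such bulk samples.

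Lysosomal genes made up a large share of the microglial RNA. The 42 members took between 4.54% and 5.96% of all normalized counts in every mouse. Per kilobase of exon, the same 7 genes led the order in all 4 groups: Ctss, Ctsd, Lgmn, Psap, Lamp1, Ctsz and Ctsb. The length is that of all annotated exons of a gene merged, so the order depends on the annotation. In 7-month wild-type mice Ctsl had 52567 normalized counts over 6489 bases and ranked 15, while Ctsz had 39234 over 1441 bases and ranked 6. Ctss, the cysteine protease cathepsin S, stood first at 503876 ± 41507 normalized counts per kilobase in the 7-month wild-type mice (SD, n = 4). Ctsd, the aspartic protease cathepsin D, followed at 182257 ± 16570. Lgmn, an asparagine-specific protease that processes cathepsins, had 78554 ± 5918. Psap, the precursor of the saposins that help lipid breakdown, had 74531 ± 8590, so Lgmn and Psap were within their spread of each other. Ctsz at 27227 ± 2492 and Ctsb at 26349 ± 2543 per kilobase were likewise within their spread of each other. At the other end stood Mcoln1, the lysosomal calcium channel, at 108 ± 7.6 per kilobase, and Ctsk, cathepsin K of bone-resorbing cells, at 25 ± 32.

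The CLEAR box was searched in the 250 bases before each RefSeq start site, on both strands, in promoters of the GRCm38.p6 build. Promoters were at hand for 38 members, all except Ctsb, Ctsh, Asah1 and Npc1. These members had 43 promoters, and a gene counted as a match if any of its promoters held the element. Some matches, such as those of Ctsa and Lgmn, therefore lie inside the annotated gene, before a start site further downstream. The element, spelled GTCACGTG, was present in 8 of these 38 members (21.1%) and in 2.11% of 27025 genes. These members were Arsa, Ctsa, Ctsd, Gla, Lamp1, Lgmn, Mcoln1 and Naglu. Its inner part CACGTG, the E-box, which every CLEAR box contains, was present in 11 of 38 (28.9%) and in 6.86% of genes, adding Ctsf, Ctsl and Gaa. Shown first are 3 stretches around a CLEAR box, in capitals, that lie outside the annotated gene, and then the 100 bases before the start of Ctsc and Idua, the members with the largest genotype differences among the well expressed ones, in which neither element was found. Lamp1 is at chr8:13159118-13159155 on the plus strand, Gla at chrX:134601179-134601216 and Ctsd at chr7:142388050-142388077 on the minus strand, Ctsc at chr7:88277985-88278084 and Idua at chr5:108660231-108660330 on the plus strand.
Lamp1: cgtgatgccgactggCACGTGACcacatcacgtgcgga
Gla: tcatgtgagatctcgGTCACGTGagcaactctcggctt
Ctsd: tccccCACGTGACctgtatccagtcatt
Ctsc: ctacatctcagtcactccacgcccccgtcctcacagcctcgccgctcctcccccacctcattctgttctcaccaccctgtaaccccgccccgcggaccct
Idua: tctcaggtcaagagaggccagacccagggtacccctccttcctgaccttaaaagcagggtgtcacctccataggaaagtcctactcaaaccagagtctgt

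At 7 months most lysosomal genes lay slightly above the wild-type level in mThy1-α-synuclein microglia, and 4 of them passed the test. The log2 fold change (mThy1-α-synuclein over wild-type, on the log2(value + 1) scale) was above 0 for 36 of the 42 members, against 50.2% of the 13887 genes tested. Its median over the members was 0.20, against 0.00093 over all genes. With p-values adjusted over all genes and a threshold of 0.05, Ctsc, Idua, Manba and Asah1 were higher, and no member was lower. Of all genes tested, 4.93% were called, 2.23% as higher and 2.7% as lower. At an unadjusted p under 0.05, 18 members were higher, against 10.7% of all genes, and 1, Ids, was lower, against 10.6%. In the plot of log2 fold changes most 7-month points lie to the right of 0.

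**Figure D1:**
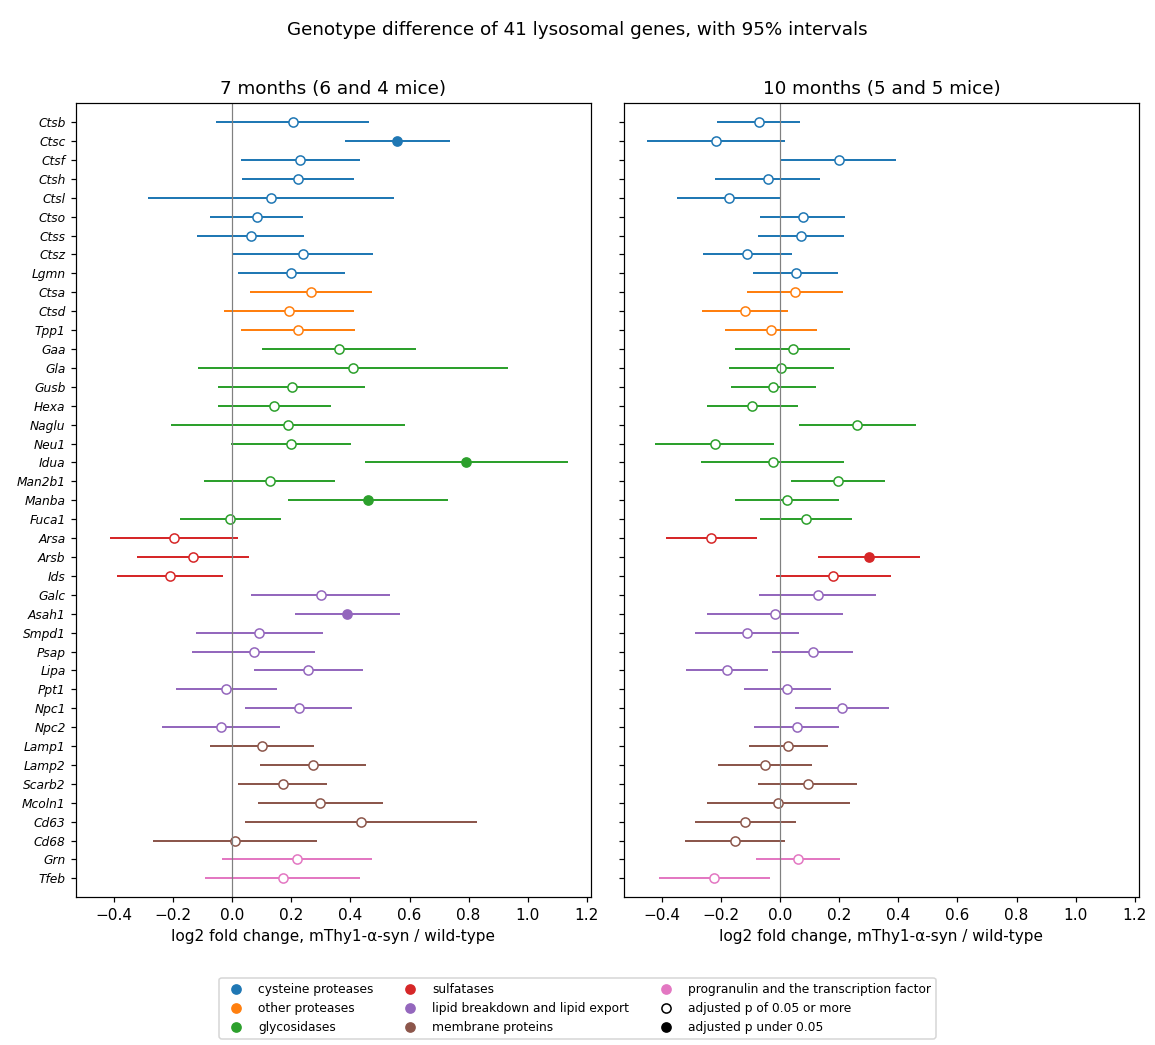
Log2 fold change of mThy1-α-synuclein over wild-type (horizontal axis) for 41 members (rows, coloured by role) at 7 months (left, 6 and 4 mice) and 10 months (right, 5 and 5 mice). Points are limma estimates, lines their 95% intervals and filled points have an adjusted p under 0.05; Ctsk is left out because its interval at 10 months, from -5.30 to -1.51, would compress the axis. Filled points are Ctsc, Idua, Manba and Asah1 at 7 months and Arsb at 10 months.

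Among the proteases, Ctsc was higher in mThy1-α-synuclein mice at 7 months. Ctsc (chr7:88278085-88310888, plus strand, GRCm38) encodes cathepsin C, a dipeptidyl peptidase that activates the serine proteases of immune cell granules. In the 6 mThy1-α-synuclein mice its normalized count ran from 36456 to 50186 with a median of 42812. The 4 wild-type mice had 30658, 28886, 27095 and 29875. Every transgenic mouse stood above every wild-type mouse, at a log2 fold change of 0.56 ± 0.08 (SE; adjusted p = 0.00183). All 10 cysteine proteases had a 7-month log2 fold change above 0, with a median of 0.21. The sign of Ctsk, 1 of these 10 and of the 36 members above 0, was not settled. It had 0.46 ± 1.14 (adjusted p = 0.856), with values between -0.78 and 1.47 over the alternatives. Its mean count was lower in transgenic mice, at 22.3 against 37.2. The most abundant protease, Ctss, had 0.06 ± 0.08 (adjusted p = 0.702), with an interval from -0.11 to 0.24. Ctsb, which cuts from within and from the ends of proteins, had 0.20 ± 0.12 (adjusted p = 0.345), and Ctsz, a carboxypeptidase, 0.24 ± 0.11 (adjusted p = 0.225). Ctsd, known to degrade α-synuclein, was at 492131 ± 67738 (SD, n = 6) and 428486 ± 38956 (SD, n = 4) normalized counts, a log2 fold change of 0.19 ± 0.10 (adjusted p = 0.291). It shares 34.4% of its exonic bases with the gene Gm49369 on the same strand. The other proteases Ctsa and Tpp1 had log2 fold changes of 0.27 and 0.22 and did not pass either.

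Among the enzymes that trim sugar chains, Idua and Manba were higher in mThy1-α-synuclein mice at 7 months. Idua (chr5:108660331-108684557, plus strand) encodes the α-L-iduronidase that degrades heparan and dermatan sulfate. Its normalized counts in mThy1-α-synuclein mice ran from 1872 to 3418 with a median of 2457. In wild-type mice they were 1411, 1278, 1601 and 1391, so the groups did not overlap. The log2 fold change of 0.79 ± 0.16 (adjusted p = 0.0129) was the highest of the 42 members at this age. Without wild-type replicate 1 the adjusted p was 0.0528. Idua shares 124 exonic bases with Dgkq and 141 with Slc26a1 on the opposite strand. Whether strand was used in counting is not given in the sources used here, so their reads may be mixed. Dgkq was at 355 and 323 normalized counts on average in the transgenic and wild-type groups and Slc26a1 at 14.9 and 22.2, far below Idua.

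Manba (chr3:135485611-135571404, plus strand), a β-mannosidase, ran from 2798 to 4884 with a median of 4060 in mThy1-α-synuclein mice. The wild-type mice had 2859, 2632, 2824 and 2985. The groups overlapped through transgenic replicate 5, the lowest of its group. The log2 fold change was 0.46 ± 0.12 (adjusted p = 0.0488). Of the 10 fits that left out 1 mouse, only those without transgenic replicate 4 or 5 made this call, and the adjusted p reached 0.127 without wild-type replicate 1. Of the 10 glycosidases, 9 had a log2 fold change above 0 and the median was 0.20. Gla, the X-linked α-galactosidase A, had 0.41 ± 0.24 (adjusted p = 0.352), and its transgenic mice ran from 579 to 1477 with a median of 642. Replicate 3 alone lay at 1477, the next mouse at 693 and the wild-type mice at 563, 650, 543 and 453.

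Among the lipid enzymes Asah1 was higher in mThy1-α-synuclein mice at 7 months. Asah1 (chr8:41340197-41374773, minus strand) encodes acid ceramidase, which splits ceramide into sphingosine and a fatty acid. Its normalized counts ran from 40640 to 53574 with a median of 44435 in mThy1-α-synuclein mice. The wild-type mice had 35713, 36085, 34178 and 33983, all below every transgenic mouse, and the log2 fold change was 0.39 ± 0.08 (adjusted p = 0.0123). Lipa (chr19:34492318-34527474, minus strand), the acid lipase that frees cholesterol and fatty acids from their esters, ran from 8832 to 12116 with a median of 10068. Wild-type mice were at 8411, 8033, 8796 and 8641. These groups did not overlap either, by a narrow margin, and the log2 fold change of 0.26 ± 0.09 did not pass (adjusted p = 0.0948). Ppt1 and Npc2, a thioesterase and a cholesterol carrier, had log2 fold changes of -0.02 and -0.04.

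All 3 sulfatases had a log2 fold change below 0 at 7 months, as did Fuca1, Ppt1 and Npc2, and none passed the test. These enzymes remove sulfate groups from sugars and lipids. Arsa, which degrades sulfatide of myelin, had a log2 fold change of -0.20 ± 0.10 (adjusted p = 0.274). Arsb, which acts on dermatan and chondroitin sulfate, had -0.13 ± 0.09 (adjusted p = 0.414). For Ids, the X-linked iduronate sulfatase, which acts in the same breakdown path as Idua, the value was -0.21 ± 0.08 (adjusted p = 0.155). Mice of both genotypes overlapped in all 3.

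All 6 membrane proteins had 7-month log2 fold changes above 0, with a median of 0.22, and none passed. Lamp2, the X-linked receptor of chaperone-mediated autophagy, came closest at 0.28 ± 0.08 (adjusted p = 0.0691), with 57279 ± 5938 (SD, n = 6) against 47177 ± 2553 (SD, n = 4) normalized counts. Mcoln1 had 0.30 ± 0.10 (adjusted p = 0.0933), and its transgenic mice, from 932 to 1229, did not overlap the wild-type values of 747, 873, 854 and 796. Cd63, a tetraspanin of late endosomes, had 0.44 ± 0.18 (adjusted p = 0.184), with transgenic replicate 3 at 20747 and the next mouse at 12790. Lamp1, the major glycoprotein of the lysosomal membrane, had 0.10 ± 0.08 (adjusted p = 0.501). Cd68, the phagocyte relative of Lamp1 that is widely used as a marker of activated microglia, was at 31444 ± 5699 (SD, n = 6) and 30991 ± 3875 (SD, n = 4), a log2 fold change of 0.01 ± 0.13 (adjusted p = 0.978). Grn, whose product progranulin is cut into granulins in lysosomes, had 0.22 ± 0.12 (adjusted p = 0.296), and Tfeb itself 0.17 ± 0.12 (adjusted p = 0.445).

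In total, 5 members had non-overlapping groups in the higher direction at 7 months, Ctsc, Idua, Asah1, Lipa and Mcoln1, and none in the lower direction. Of all genes tested, 7.53% had non-overlapping groups (3.55% higher and 3.97% lower). Members with a CLEAR box had a median 7-month log2 fold change of 0.20 (8 genes) and those without it of 0.19 (30 genes), a difference that was not tested. A window without these letters says nothing of whether Tfeb binds there or elsewhere.

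**Figure D2:**
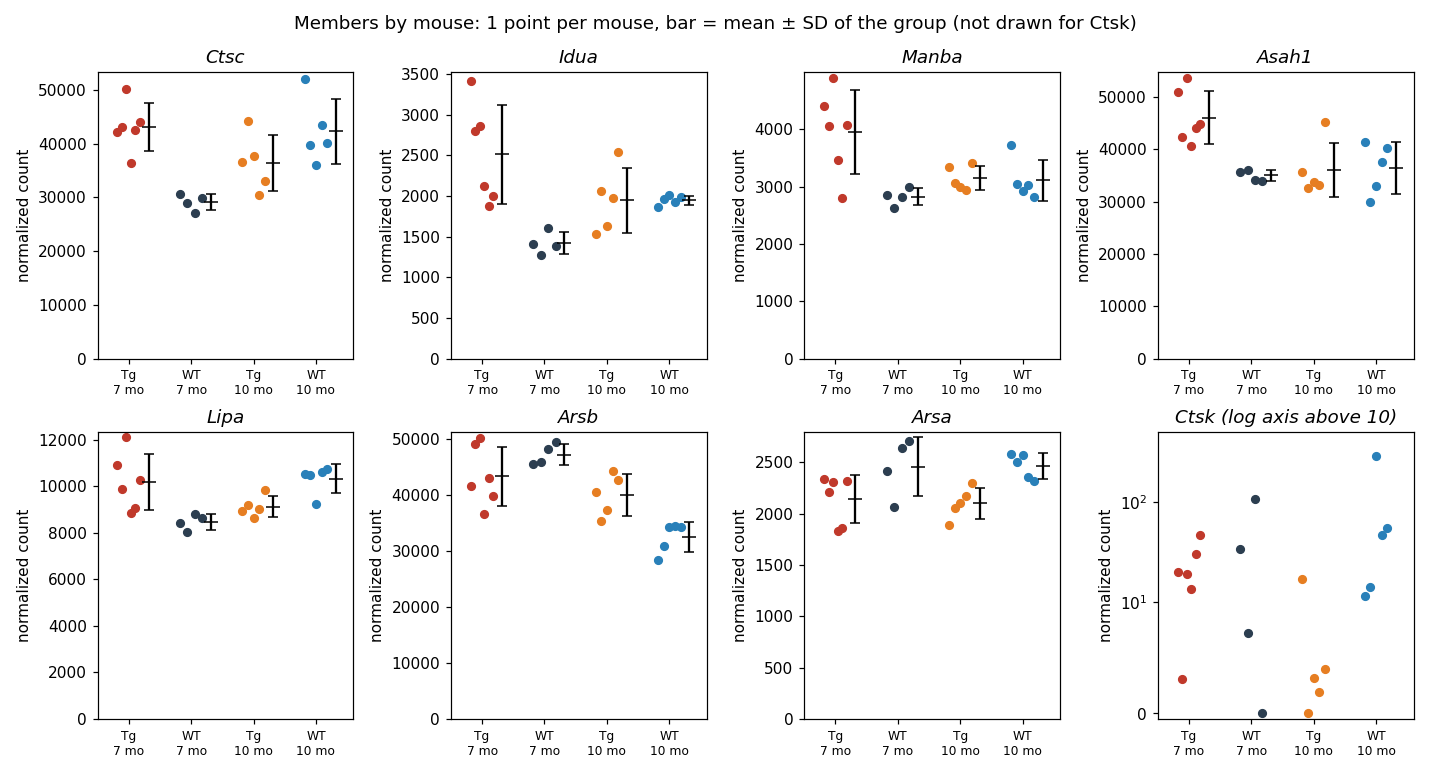
Normalized counts (vertical axes) of 8 members in each mouse (1 point per mouse) in the 4 groups, with mean ± SD beside the points except for Ctsk, whose axis is logarithmic above 10. Ctsc, Idua, Asah1 and Lipa show no overlap of the groups at 7 months, Arsb and Arsa none at 10 months, and the Ctsk groups overlap at both ages.

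The 7-month shift was uneven between mice. Relative to the wild-type mean, the median log2 difference over the members was 0.31, 0.20, 0.38 and 0.27 in transgenic replicates 1, 2, 3 and 6, and -0.03 and 0.06 in replicates 4 and 5. The wild-type mice lay between -0.11 and 0.12. Replicate 3 was the highest of the transgenic mice in 25 of 42 members and replicate 4 the lowest in 27. Replicates 4 and 5 were also among the 3 transgenic mice with high neutrophil sums, at 231058 and 383198, as was replicate 6 at 210621, which had the shift. With the log2 neutrophil sum of each mouse added to the fit, an alternative chosen after seeing the data, the same 4 members were called and the median log2 fold change was 0.16. Without transgenic replicate 4, 10 members were called higher, the 4 named and Lgmn, Ctsa, Tpp1, Gaa, Lipa and Lamp2. Without wild-type replicate 1 only Ctsc and Asah1 were. Neuronal and oligodendrocyte marker sums were lower in every 7-month transgenic mouse than in every wild-type mouse, at 238 to 453 against 693 to 1303 for 10 neuronal genes and 7897 to 10323 against 12895 to 18432 for 8 oligodendrocyte genes. The endothelial sum over 7 genes was lower in the same way, at 3200 to 4661 against 5025 to 6006. By single genes, 5 of 9 tested neuronal, 3 of 8 oligodendrocyte and 2 of 7 endothelial markers were called lower. Of 9 astrocyte markers 4 were called lower and 1 higher, while their sums overlapped, at 9738 to 12489 against 9358 to 12099. The microglial sum over 10 genes ran from 1484130 to 1703150 in transgenic and from 1428580 to 1580520 in wild-type mice, so these groups overlapped. Of the 10 microglial markers 7 had a log2 fold change above 0, with a median of 0.10, and 0 were called. The part of these cell types in the lysosomal values was not tested.

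**Figure D3:**
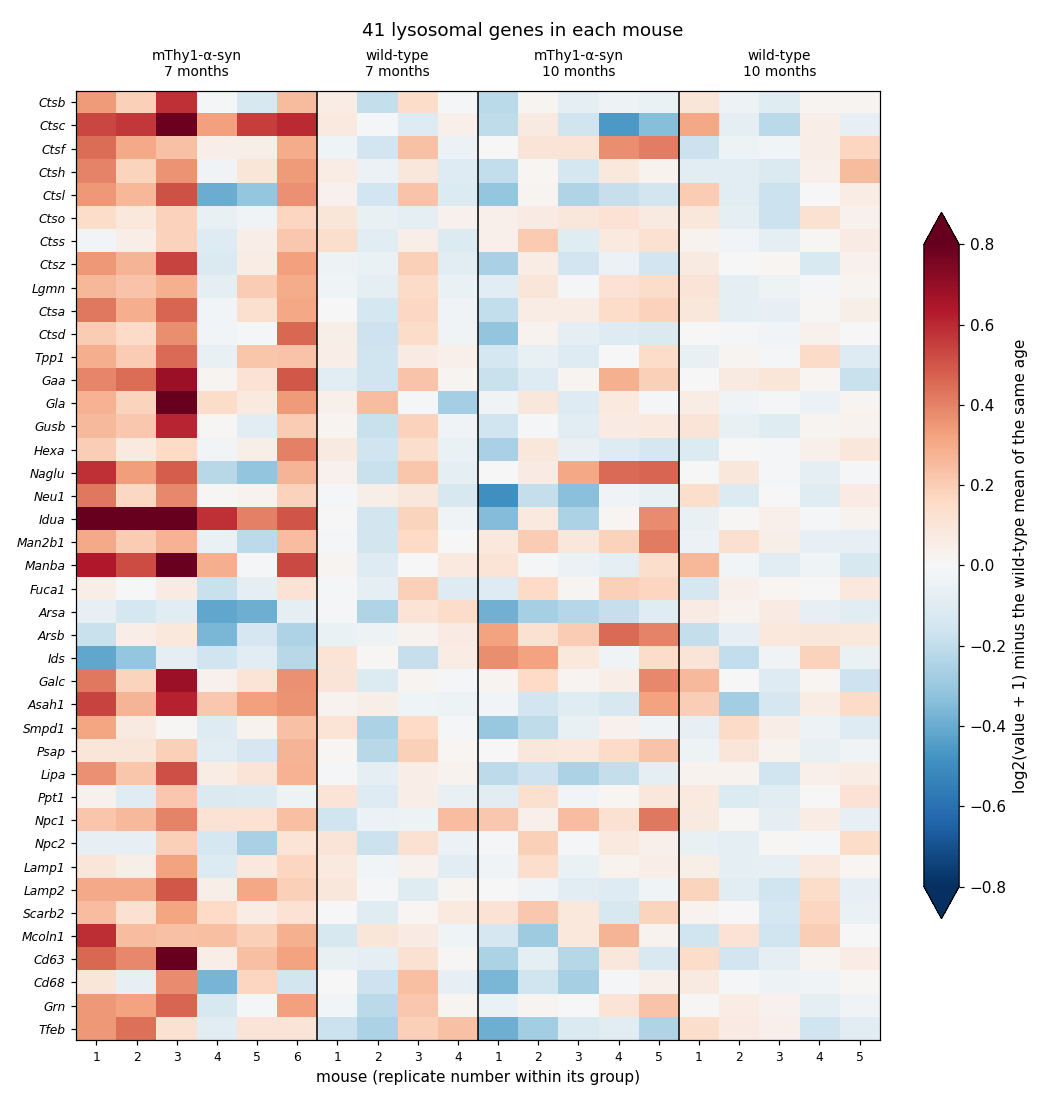
Log2(value + 1) of 41 members (rows, without Ctsk) in each of the 20 mice (columns) minus the wild-type mean of the same age, with red for higher and blue for lower and the colour scale ending at 0.8. Transgenic replicates 1, 2, 3 and 6 at 7 months are red over most rows, replicates 4 and 5 are paler and partly blue, and the 10-month mice show no common colour.

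At 10 months the members no longer stood to one side of 0. Of the 42, 21 had a log2 fold change above 0, against 49.5% of 13627 genes, and the median was -0.00039. Arsb was higher and Ctsk was lower, 2 of 42 members where 7.67% of all genes were called (3.88% higher and 3.79% lower). Ctsk entered this test only through the wild-type mice, where it was high. At an unadjusted p under 0.05, 5 members were higher and 5 lower, against 11.5% and 12.0% of genes.

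Arsb (chr13:93771630-93943016, plus strand) had normalized counts of 40474, 35252, 37218, 44243 and 42640 in the 10-month mThy1-α-synuclein mice. The wild-type mice had 28378, 30852, 34233, 34441 and 34271, below every transgenic mouse. The log2 fold change was 0.30 ± 0.08 (adjusted p = 0.0354). Arsb shares 1948 exonic bases (32.3% of its exons) with Gm26527 and 463 with Gm47210 on the opposite strand, both not in the table, so reads of these RNAs could be mixed in if strand was not used. The call was made in 3 of 10 fits that left out 1 mouse. It was lost without transgenic replicate 1, 3, 4 or 5 or wild-type replicate 1, 2 or 3, with an adjusted p of up to 0.0863. Arsa (chr15:89472476-89477425, minus strand) went the other way, at 1886, 2051, 2103, 2170 and 2301 in transgenic and 2578, 2508, 2577, 2353 and 2318 in wild-type mice. Its groups did not overlap, but its log2 fold change of -0.23 ± 0.07 did not pass (adjusted p = 0.0572). Arsb and Arsa were the only members without overlap at 10 months, against 7.27% of all genes (3.78% higher and 3.49% lower). Ids had a log2 fold change of 0.18 ± 0.09 (adjusted p = 0.243).

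Ctsk (chr3:95499256-95509362, plus strand) was close to the limit of detection. It met the minimum of 10 in 5 mice through the wild-type group, while among transgenic mice only replicate 1 reached 10. The call of Ctsk therefore gives no support beyond the values themselves. Its normalized counts were 17, 0, 3, 2 and 4 in mThy1-α-synuclein mice and 12, 14, 289, 47 and 55 in wild-type mice, so the groups overlapped through transgenic replicate 1. The log2 fold change was -3.40 ± 0.88 (adjusted p = 0.0344), with values between -4.00 and -1.75 over the alternatives. edgeR on the recovered reads did not call it. It was called in 4 of 10 fits that left out 1 mouse, and lost without transgenic replicate 2, 3, 4 or 5 or wild-type replicate 3 or 5, with an adjusted p of up to 0.0749. At 7 months Ctsk had values between 3 and 47 in transgenic and of 34, 7, 107 and 0 in wild-type mice.

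None of the other proteases passed the test at 10 months. Ctsf had a log2 fold change of 0.20 ± 0.09 (adjusted p = 0.194) and Ctsl -0.17 ± 0.08 (adjusted p = 0.214). Ctss had a log2 fold change of 0.07 ± 0.07 (adjusted p = 0.565), Ctsd -0.12 ± 0.07 (adjusted p = 0.307), Ctsb -0.07 ± 0.06 (adjusted p = 0.541) and Ctsz -0.11 ± 0.07 (adjusted p = 0.366). For Ctsc the mThy1-α-synuclein mice had 36501, 44110, 37640, 30445 and 33097 and the wild-type mice 52074, 39808, 36059, 43436 and 40013, a log2 fold change of -0.22 ± 0.11 (adjusted p = 0.240). These groups overlapped. Idua was at 1947 ± 397 and 1950 ± 55 (SD, n = 5 each), Manba at 3149 ± 212 and 3105 ± 354, and Asah1 at 36023 ± 5201 and 36424 ± 4906, each with group means closer than the SD. Naglu, which removes N-acetylglucosamine from heparan sulfate, had 0.26 ± 0.09 (adjusted p = 0.0967).

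Of the membrane proteins at 10 months, Lamp1 had a log2 fold change of 0.03 ± 0.06 (adjusted p = 0.824), Lamp2 -0.05 ± 0.07 (adjusted p = 0.731) and Cd68 -0.15 ± 0.08 (adjusted p = 0.251). Grn had 0.06 ± 0.07 (adjusted p = 0.616) and Gla 0.0049 ± 0.08 (adjusted p = 0.980). Tfeb was at 1070 ± 91 and 1248 ± 105 (SD, n = 5 each), a log2 fold change of -0.22 ± 0.09 that did not pass (adjusted p = 0.132).

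Markers of several cell types differed between the genotypes at 10 months. The microglial sum was higher in every mThy1-α-synuclein mouse, at 1367970 to 1514530 against 1278880 to 1363880, with 3 of 10 markers called higher. Border macrophage markers, 4 of 7 of them called lower, summed to 18879 to 24280 in mThy1-α-synuclein and 25613 to 35529 in wild-type mice. Lymphocyte markers, 2 of 4 tested called lower, summed to 92.5 to 257 and 288 to 614. Neutrophil and monocyte sums overlapped between the genotypes, with 1 of 5 and 2 of 5 markers called lower. Neutrophil sums were 62335 to 167100 in mThy1-α-synuclein and 135218 to 334772 in wild-type mice, and monocyte sums 9496 to 19380 and 19006 to 40405. None of these markers was at 0 in a whole group. With the neutrophil sum in the fit neither Arsb, at a log2 fold change of 0.31, nor Ctsk, at -1.75, was called (adjusted p = 0.324 and 0.592), and over all genes 37 calls were left of 1045. Since the neutrophil sum also went with genotype at this age, their parts cannot be told apart. The part of the other cell types was not tested.

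**Figure D4:**
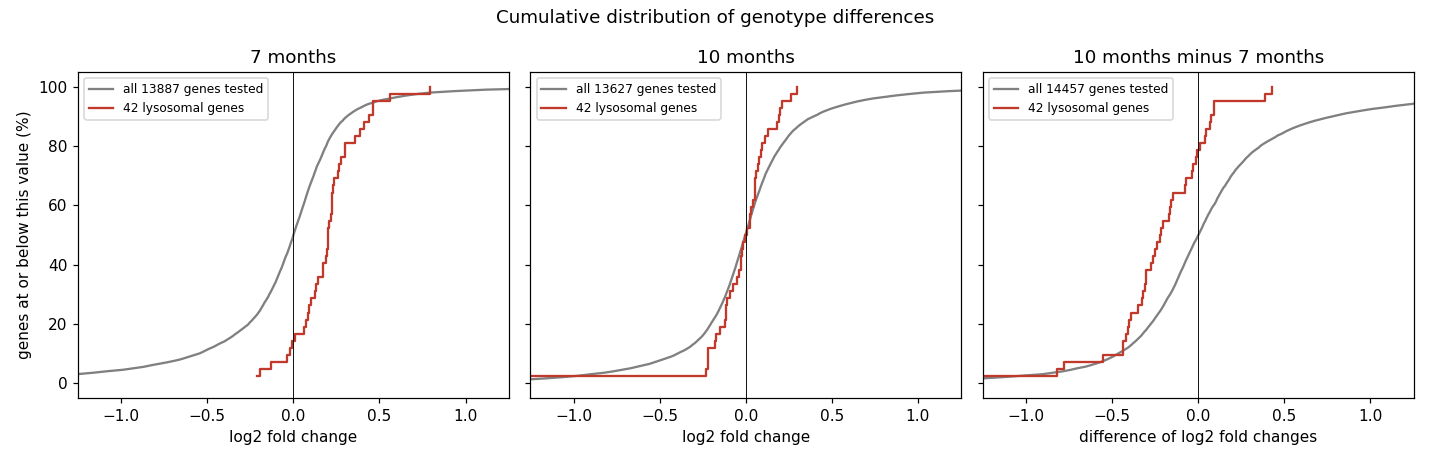
Cumulative share of genes (vertical axis, percent) at or below a given log2 fold change (horizontal axis) for all genes tested (grey) and the 42 members (red), at 7 months, at 10 months and for the difference between ages. Over most of its length the red line lies to the right of the grey one at 7 months, with a median of 0.20, crosses it near 0 at 10 months, and lies to its left in the difference, with a median of -0.22; at both 10 months and in the difference, Ctsk lies beyond the left edge.

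The difference between the ages was tested as the 10-month genotype effect minus the 7-month one, in 1 fit of all 20 mice. Ctsc, Idua and Lipa were lower and Arsb was higher in this difference, 4 of 42 members where 6.36% of 14457 genes were called (3.74% higher and 2.62% lower). For Ctsc the difference of log2 fold changes was -0.78 ± 0.14 (adjusted p = 0.00255), for Idua -0.82 ± 0.20 (adjusted p = 0.0198) and for Lipa -0.44 ± 0.11 (adjusted p = 0.0152). For Arsb it was 0.43 ± 0.12 (adjusted p = 0.0327). The first 3 calls were made in all 20 fits that left out 1 mouse, and that of Arsb in 12. Arsb was lost without 7-month transgenic replicate 6 or wild-type replicate 3 or 4, and without 10-month transgenic replicate 1, 4 or 5 or wild-type replicate 1 or 2, with an adjusted p of up to 0.0691. Below 0 were 33 members, against 49.9% of genes, with a median of -0.22 against 0.00080 over all genes. At an unadjusted p under 0.05, 15 members were lower and 2, Arsb and Ids, higher, against 10.4% and 11.5% of genes. In the same difference 4 of 9 tested neuronal markers (median 2.17) and 5 of 9 astrocyte markers (median 1.53) were called higher. Of the other marker lists 0 genes were called. The part of these cells, or of processing, in the lysosomal differences was not tested.

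The levels behind these differences were as follows, each age being normalized by itself. Wild-type Ctsc was at 29128 ± 1538 (SD, n = 4) at 7 months and 42278 ± 6067 (SD, n = 5) at 10 months, while the transgenic mean was 43064 and 36359. Wild-type Idua was at 1420 ± 134 and 1950 ± 55, near the transgenic mean of 1947 at 10 months. Lipa at 10 months was at 8913, 9189, 8633, 9016 and 9818 in mThy1-α-synuclein mice and at 10517, 10493, 9245, 10619 and 10752 in wild-type mice, a log2 fold change of -0.18 ± 0.06 (adjusted p = 0.100). For Arsb the wild-type mean was 47160 at 7 months and 32435 at 10 months, with transgenic means of 43320 and 39965. At 7 months the mice behind these means ran from 36591 to 50077 with a median of 42267 in the transgenic group and were 45452, 45770, 48103 and 49314 in the wild-type group, so the groups overlapped. Levels were not tested between ages. By sign, 20 members were above 0 at 7 months and below at 10, 16 above at both, 5 below and then above, and 1, Arsa, below at both. Of all 13484 genes tested at both ages, 24.9%, 25.8%, 23.7% and 25.6% fell in these classes.

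Other lysosomal genes, on lists of 96 genes kept apart from the members, were also mostly above 0 at 7 months. These lists, too, were chosen with earlier results of these data known. Of the 95 tested, 74 had a log2 fold change above 0, 9 were called higher and none lower, against 2.23% and 2.7% of all genes, and the median was 0.15. Among 22 further enzymes and activators, Glb1, the β-galactosidase, had 0.68 ± 0.09 (adjusted p = 0.00183), Sgsh, a sulfatase of heparan sulfate breakdown, 1.15 ± 0.24 (adjusted p = 0.0237) and Pla2g15, a phospholipase, 0.41 ± 0.10 (adjusted p = 0.0307). Of 17 tested proton pump subunits 14 were above 0 and Atp6v1h was called, at 0.34 ± 0.09 (adjusted p = 0.0416). Among 22 further membrane proteins, the nucleoside transporter Slc29a3 was higher by 0.33 ± 0.07 (adjusted p = 0.0151) and the amino acid transporter Slc36a1 by 0.57 ± 0.12 (adjusted p = 0.0159). Of 15 genes for enzyme delivery and activation, Igf2r, a mannose phosphate receptor, was higher by 0.84 ± 0.18 (adjusted p = 0.0122) and Cln8, an export factor for lysosomal enzymes, by 0.34 ± 0.08 (adjusted p = 0.0280). Of 16 genes of Tfeb relatives and nutrient sensing, the Tfeb relative Mitf was higher by 0.38 ± 0.10 (adjusted p = 0.0372). None of the 3 cathepsin inhibitors passed.

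At 10 months 2 of these 95 genes were higher and 2 lower, against 3.88% and 3.79% of all genes, with a median log2 fold change of -0.02. Glb1 was higher again, by 0.42 ± 0.11 (adjusted p = 0.0309). The serine carboxypeptidase Scpep1 had -0.50 ± 0.08 (adjusted p = 0.00280) and Aga, which cleaves asparagine-linked sugars, -0.25 ± 0.07 (adjusted p = 0.0473). Proton pump subunits were below 0 in 14 of 17, with a median of -0.13 and no call. In the difference between ages 9 of the 95 genes were lower, Atp6ap2, Atp6v1b2, Atp6v1c1, Pla2g15, Aga, Igf2r, Nagpa, Cln8 and Mitf, and 1 was higher, Lamtor1, a part of the complex that anchors mTORC1 signalling to lysosomes, against 2.62% and 3.74% of all genes. Igf2r was the furthest of these from 0, at -1.20 ± 0.25 (adjusted p = 0.00675).

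**Figure D5:**
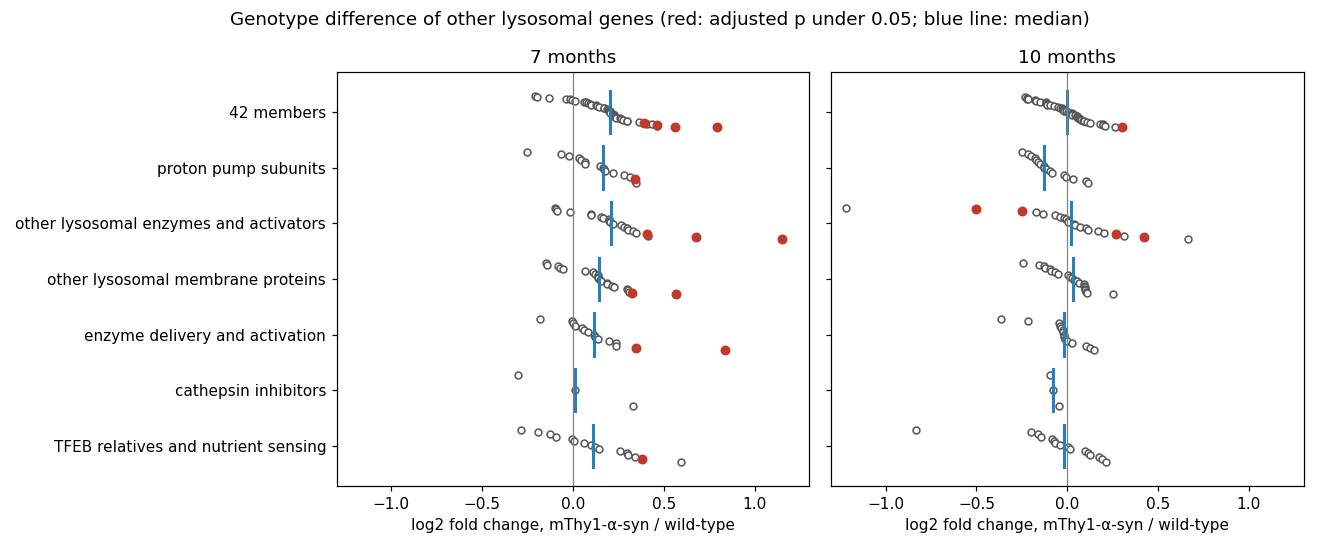
Log2 fold change of mThy1-α-synuclein over wild-type (horizontal axis) for the 42 members and for 6 lists of other lysosomal genes (rows) at 7 months (left) and 10 months (right), 1 point per gene, red where the adjusted p is under 0.05, with a blue line at the median. Medians of the lists lie above 0 at 7 months and that of the proton pump subunits is -0.13 at 10 months; Ctsk at -3.40 lies beyond the axis at 10 months.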

How the data were processed

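Per the labels and the study's methods, microglia were selected from 20 whole brains with magnetic beads (IBA1 in the labels, CD11b in the methods). The authors trimmed reads with Trim Galore 0.6.7, mapped them to mm10 with HISAT2 2.2.1, counted them per gene with featureCounts and normalized with DESeq2 1.44.0, per the labels. The deposited signal values are the authors' gene counts over the size factor of that mouse. Size factors recomputed within each age differed from those in the values by a relative 7.04e-12 at most, and 100% of values gave whole reads within 0.01. Annotation release and strand of counting are not given in the sources used here.

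Testing, which required values of 10 or more in 4 mice (7 months), 5 mice (10 months) or 4 of all 20 mice (difference between ages), was done with limma 3.58.1, with trend and robust estimation, on log2(value + 1), p-values being adjusted over all genes by the Benjamini-Hochberg method. SEs and 95% intervals are from this fit, and p-values measure the spread between single mice. Alternatives were pseudocounts of 0.5 and 5, no filter or a minimum of 50, TMM scaling, a replicate block, leaving out each mouse, and edgeR 4.0.16 and DESeq2 1.42.0 on the recovered reads. The neutrophil marker sum as a covariate was chosen after seeing the data. Other tools were R 4.3.3, Python 3.11.15, numpy 2.4.6, pandas 2.3.3 and matplotlib 3.10.9. Positions and exon lengths are from GENCODE M21 (GRCm38).

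The members and gene lists were chosen with earlier results of these data known. All 42 members enter the counts and medians, but not all are described singly. Ctso, Galc, Gusb, Hexa, Neu1, Man2b1, Smpd1 and Scarb2 are not named elsewhere, and Ctsh and Npc1 only for their missing promoter. None of these passed a test in the limma fit. Genes named with values are the members that passed any test, the 5 with the largest change at each age, the X-linked members, Tfeb, Lamp1, Cd68, Ctsd, Ctsb, Ctss, Ctsk, Ctsz and Grn, and list genes that passed, at most 4 a list and age. The result of 1 list gene is not reported here. Mcoln1, Ctsa, Tpp1, Naglu, Psap, Ctsf, Ctsl and Lgmn are named beside them, and Ppt1, Npc2 and Fuca1 for their sign, after their values were seen. The single-mouse files hold the values of the combined table and were not used further.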

Additional observations from a re-analysis of the deposited data

Results flagged for a closer look

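Of 168 combinations of member and group, 12 held a mouse far from the others of its group by Dixon's criterion, where 8.4 are expected at 1 in 20. At 7 months, transgenic replicate 3 was high in Gla (1477 normalized counts, next mouse 693) and Cd63 (20747, next 12790). Replicate 1 was high in Mcoln1 (1229, next 996), and replicate 4 low in Lgmn (173372, next 209513). Among the 7-month wild-type mice, replicate 3 was high in Lgmn (202901, next 178003) and Ctsz (44554, next 38039), and replicate 2 low in Tpp1 (16814, next 19312). At 10 months, transgenic replicate 1 was high in Ctsk (17, next 4.01) and replicate 5 in Asah1 (45100, next 35586). Among the 10-month wild-type mice, replicate 3 was high in Ctsk (289, next 54.6) and low in Lipa (9245, next 10493), and replicate 1 was high in Manba (3718, next 3044).

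The genotype effect differed between the ages, by the test of that difference, for Ctsc (-0.78), Idua (-0.82), Lipa (-0.44) and Arsb (0.43), on the log2 scale. Age and processing cannot be told apart in this difference.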

How the results depend on the processing

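No called result changed sign under any alternative. Leaving out each mouse in turn gave 2 to 10 members called higher at 7 months and 0 lower, with 34 to 38 above 0 and a median of 0.15 to 0.25. At 10 months it gave 0 to 1 higher and 0 to 1 lower, with 20 to 24 above 0 and a median of -0.02 to 0.03. In the difference between ages it gave 0 to 2 higher and 3 to 7 lower, with 7 to 12 above 0 and a median of -0.27 to -0.17. Ctsc and Asah1 at 7 months and Ctsc, Idua and Lipa in the difference were called in every fit. With a minimum of 50 Ctsk was left out of the test at 10 months, and 0 members were called lower. Members called lower at this age were 0 with edgeR under TMM or RLE scaling and 2 (Ctsk and Arsa) with DESeq2. DESeq2 called 2 members higher and 6 lower in the difference, and 6 higher at 7 months. With the neutrophil sum as a covariate, 0 members were higher and 0 lower at 10 months, and 8 were lower in the difference. Manba was not called with a pseudocount of 0.5 or without a filter. Replicate numbers did not pair the mice. Correlations of same-numbered mice ran from -0.13 to 0.03 at 7 months and from -0.05 to 0.10 at 10 months. With the replicate block the same members were called within each age, but 0 were higher in the difference (Arsb, adjusted p = 0.0965), and 4 were lower. Over all genes, calls went from 684 to 1166 (DESeq2) and 414 (block) at 7 months, from 1045 to 1697 (DESeq2) and 37 (covariate) at 10 months, and from 920 to 482 (block), 1319 (DESeq2) and 1175 (covariate) in the difference. Leaving out a mouse gave 280 (without wild-type replicate 1) to 860 calls at 7 months, 497 to 1235 at 10 months and 618 to 1097 in the difference. The cause of these changes was not tested. Among the members, Ctsk was the one with values under 10.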
